A study of Mus musculus with 4 samples.

Results

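The miRNAs described here are those that textbooks assign to tissues other than the lung: pluripotent cells, skeletal and cardiac muscle, the nervous system, liver and gut, pancreas, and blood. They were chosen by their miRNA number among the mouse assays of the TaqMan cards, with passenger strands (names ending in *) left out. The rule itself used no measured values, though earlier results of these data were known when it was set. This gave 47 of 517 mouse miRNA assays, 42 on card A and 5 on card B. For miR-144, a blood miRNA of the same rule, no assay was used here. The tissue groups held 16 pluripotent, 7 muscle, 10 neural, 4 liver and gut, 4 pancreas and 6 blood assays.

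RNA came from bronchoalveolar stem cells (BASCs), lung cells thought to renew both bronchiolar and alveolar epithelium, taken from ICR mice 4 to 6 weeks of age. Cells lacking CD31 (an endothelial marker) and CD45 (carried by white blood cells) but bearing CD34 and Sca-1 were sorted by flow cytometry and first grown on irradiated mouse embryonic fibroblasts. For later passages the study names such feeder cells in one place and collagen-coated dishes in another, and which of these held for the arrayed samples was not given. There were 2 control samples, and 2 samples of stable BASC lines in which c-Myc was depleted by lentiviral shRNA and puromycin selection. The sample labels call the comparison group control, and the study also calls it wild type, while its methods describe a control vector. Which of these the arrayed controls were, which shRNA vector each depleted sample carried and whether replicates were separate lines are not given in the sources used here, so the tests measure the spread between these samples, which may be technical.

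A miRNA is a short RNA that directs silencing of mRNAs, mainly through its seed, bases 2 to 8 from the 5′ end. Tissue-restricted miRNAs are transcribed in few cell types, many of them as parts of a shared precursor or inside a gene of that tissue, and they are used as marks of cell identity. The miR-290 and miR-302 clusters are typical of embryonic stem cells, miR-1, miR-133 and miR-206 of muscle, miR-124 of neurons, miR-122 of hepatocytes, miR-216a, miR-217 and miR-375 of pancreas, and miR-142, miR-223 and miR-451 of blood cells. The comparison of depleted with control BASCs asks whether any of them changed when c-Myc was lowered.

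Mature sequences from RefSeq (GRCm38.p6) were matched to 37 of the 47 members, and they carried 29 different seeds. The sequences below are those of the detected members that were matched, with the seed in capitals.
miR-206: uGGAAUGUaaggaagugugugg
miR-129-3p: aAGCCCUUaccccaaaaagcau
miR-9: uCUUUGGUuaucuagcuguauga
miR-128a: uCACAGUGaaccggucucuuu
miR-192: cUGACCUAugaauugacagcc
miR-194: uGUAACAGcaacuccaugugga
miR-223: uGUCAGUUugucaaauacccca
miR-142-3p: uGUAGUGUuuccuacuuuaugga
miR-142-5p: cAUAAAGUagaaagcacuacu
miR-451: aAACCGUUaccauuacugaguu

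Among the members never detected, the next sequences show the largest group with a common seed, that of the pluripotent clusters, and miR-215, which has the seed of miR-192.
miR-291a-3p: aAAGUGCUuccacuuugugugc
miR-294: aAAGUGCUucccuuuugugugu
miR-295: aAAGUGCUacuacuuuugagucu
miR-302b: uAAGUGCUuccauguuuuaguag
miR-302d: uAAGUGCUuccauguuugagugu
miR-215: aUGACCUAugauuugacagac

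In that build the miR-206 sequence lies on the plus strand at chr1:20679055-20679076, in the noncoding gene Lincmd1 and beside Mir133b. That of miR-192 lies at chr19:6264857-6264877, beside Mir194-2, and that of miR-451 at chr11:78073186-78073207, beside Mir144. miR-9 is encoded by 3 genes with the same mature sequence, on chromosomes 3, 7 and 13. Mir486 lies within Ank1, the gene of erythrocyte ankyrin.

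The level in each well was read as a threshold cycle (CT), the number of PCR cycles needed for a detectable product, and scarce RNAs have a high CT. Wells without a CT or with one above 35 were set to 35, and a miRNA was called detected in a sample when its CT was below 35. By the copy number formula in the methods of the study a CT of 35 corresponds to 1.43 copies per cell. That formula takes 30 pg as the total RNA of a cell and was derived from a synthetic miRNA. Copies per cell are therefore estimates that were not calibrated for each assay here. Of 768 wells per sample, between 334 and 351 had a CT. The precision near this limit was read from the mouse assays that had 2 wells on card B. Where one well had a CT between 28 and 30, the other well had one below 35 in 97.6% of 83 readings. The share was 82.1% of 117 readings for a CT between 32 and 34, and 44.8% of 87 above 34. Samples were pooled and each well was taken in turn, so a pair with both wells in a band counted as 2 readings. Members on card A had 1 well per sample.

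**Figure D1:**
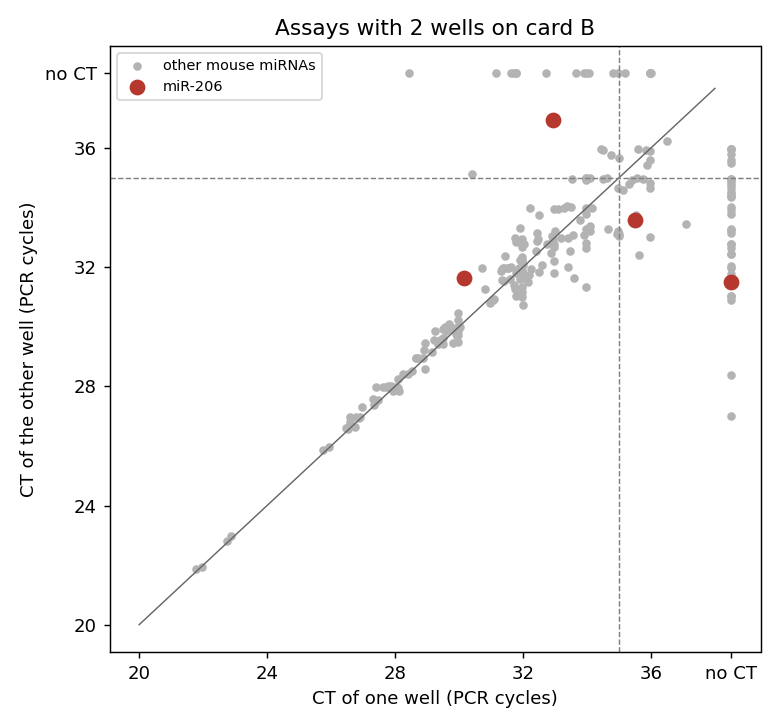
CT of one well against CT of the other for mouse assays with 2 wells on card B, 1 point per assay and sample. Wells without a CT stand at the end of each axis, dashed lines mark a CT of 35, and miR-206 is in red. The pairs lie close to the diagonal below a CT of 30 and scatter above 32.

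Most of the tissue-restricted miRNAs were not detected. Of the 47, 14 (29.8%) passed the limit in at least 1 sample, compared with 249 of the other 470 mouse miRNAs (53.0%). A total of 6 members (12.8%) were detected in all 4 samples, against 183 of the others (38.9%). No well of 28 members gave a CT in any sample, and 5 more gave a CT only above 35. The members detected in all samples were also near the limit, with a median of the mean CT of 33.2 (31.1 to 33.9), where that of the other miRNAs detected in all samples was 29.98. A CT below 30 in any sample was found for 1 member, miR-486, and for 118 of the other miRNAs.

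**Figure D2:**
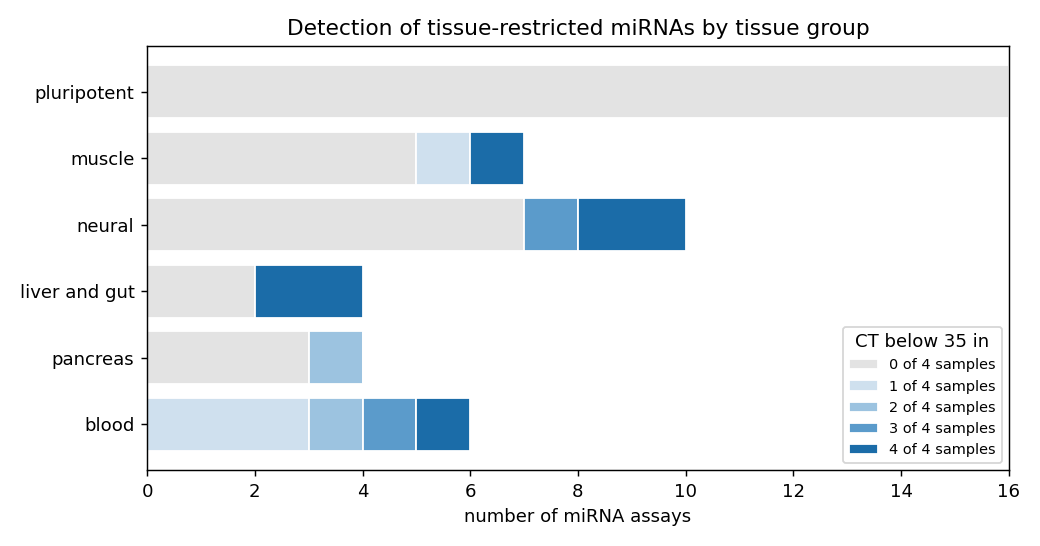
Number of miRNA assays in each tissue group, coloured by the number of samples (0 to 4) in which the CT was below 35. All 16 pluripotent assays are in the 0 class, and all 6 blood assays were detected in at least 1 sample.

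The pluripotent group was not detected. None of the 16 assays, which cover the miR-290 to miR-295 cluster, miR-302a, miR-302b, miR-302c, miR-302d and miR-367, had a CT below 35 in any sample. The AAGUGCU seed was shared by 5 of them with a sequence, and none of these 5 was detected. CT values above 35 were given by miR-293, at 35.11 and 36.98 in control replicates 1 and 2, and by miR-295, at 35.97 in depleted replicate 1. The other 14 had no CT, so that these miRNAs of embryonic stem cells stayed below the limit in both groups.

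In the muscle group 2 of 7 assays were detected. miR-206, a miRNA of skeletal muscle, was the only member on card B to be detected, and its 2 wells were averaged after the ceiling was applied. Control replicate 1 read 32.94 and 36.93 in its wells, and control replicate 2 read 35.50 and 33.58. Of the wells of depleted replicate 1 one gave no CT and the other 31.50, while depleted replicate 2 read 30.16 and 31.62. The averaged CT was 33.97 and 34.29 in controls and 33.25 and 30.89 in depleted BASCs. Depleted replicate 1 lay close to the controls only because its empty well was counted as 35.

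ΔCT, which sets each CT against the U6 small nuclear RNA on its card, was 14.42 and 14.44 in the control samples for miR-206, and 14.36 and 11.83 in depleted replicates 1 and 2. The log2 change (control ΔCT minus depleted ΔCT, so that a positive value is a higher level after depletion) was 1.34 with a standard error of 0.90. It did not pass the test (limma, adjusted p = 0.403). Without depleted replicate 2 the change was 0.07, and without depleted replicate 1 it was 2.60 (limma, adjusted p = 0.00986), where the remaining depleted sample was assumed to vary like the controls. With empty wells left out the ΔCT of depleted replicate 1 was 12.61, and the log2 change was 2.21 with a standard error of 0.32 (limma, adjusted p = 0.0519). With wells above 35 left out as well the ΔCT was 13.39 and 13.73 in controls and 12.61 and 11.83 in depleted BASCs, and the log2 change was 1.34 with a standard error of 0.35 (limma, adjusted p = 0.0845). The value and spread of miR-206 thus depended on how wells without a usable CT were counted, and it did not pass the test under any of these 3 counts. The groups did not overlap in ΔCT, with the depleted samples higher, as was the case for 33.9% of all miRNAs detected in all 4 samples.

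miR-133b, whose gene neighbours Mir206, gave no CT in any sample. miR-133a had a CT of 34.68 in control replicate 1 and none elsewhere. miR-1, which restrains growth of cardiac and skeletal muscle precursors, gave a single CT of 36.04, also in control replicate 1. miR-208, miR-208b and miR-499, which lie inside the myosin heavy chain genes Myh6, Myh7 and Myh7b, gave none.

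In the neural group 3 of 10 assays were detected. miR-129-3p had the highest level of the group, with a CT of 31.61 and 30.96 in controls and 30.97 and 30.73 in depleted BASCs. The level corresponded to 19.0 ± 5.88 and 25.1 ± 3.01 copies per cell (SD, n = 2 each). The samples overlapped, and the log2 change was 0.28 with a standard error of 0.36 (limma, adjusted p = 0.678). The other arm of its hairpins, miR-129-5p, gave no CT.

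miR-9, a regulator of neural progenitors, had a CT of 34.37 and 32.99 in controls and 32.58 and 33.995 in depleted BASCs. Each group held a higher and a lower sample, and the log2 change of 0.24 was smaller than its standard error of 0.77 (limma, adjusted p = 0.827). The signs of miR-129-3p and miR-9 turned negative under each of the other references tried for the ΔCT. miR-128a was detected in 3 samples, with 33.38 in control replicate 2, 34.97 and 34.86 in the depleted samples, and a CT above 35 in control replicate 1. miR-124, the most abundant miRNA of neurons, gave no CT, nor did miR-137, miR-153 and miR-219. miR-184 and miR-383 gave a CT above 35 in control replicate 2 alone.

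In the liver and gut group 2 of 4 assays were detected, both in all samples. miR-192 was the most even of all members, with a CT of 31.97, 32.14, 31.98 and 31.96 in control replicates 1 and 2 and depleted replicates 1 and 2, or 10.9 ± 0.892 and 11.5 ± 0.0848 copies per cell (SD, n = 2 each). Most of these CT values lay just below a whole cycle, as many did in the whole table. The log2 change of miR-192 was -0.07 with a standard error of 0.17 (limma, adjusted p = 0.783). The groups did not overlap in ΔCT, with the depleted samples lower, which was so for 25.4% of the miRNAs detected in all 4 samples. miR-215, which has the same UGACCUA seed, gave no CT.

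miR-194 is encoded beside miR-192 on chromosome 19 and beside miR-215 on chromosome 1. Its CT was 32.22 and 33.97 in controls and 32.64 and 33.99 in depleted BASCs, so that each group spread over more than 1 cycle. The log2 change of -0.37 was smaller than its standard error of 0.74 (limma, adjusted p = 0.738). miR-122, which makes up much of the miRNA of hepatocytes, gave no CT.

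In the pancreas group miR-216a, miR-216b and miR-217 gave no CT. miR-375, found in islet cells and in several epithelia, had a CT of 33.39 in control replicate 2 and 32.35 in depleted replicate 1 and none in the other samples. Detection was thus in 1 sample of each group.

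All 6 blood assays were detected in at least 1 sample, and the samples differed. White blood cells bearing CD45 had been sorted out before culture, and whether any blood cells remained was not tested. In control replicate 1, 5 of the 6 were detected, against 2 in control replicate 2, 2 in depleted replicate 1 and 3 in depleted replicate 2. miR-142-3p and miR-142-5p, both arms of a hairpin made in blood cell lineages, had a CT of 33.82 and 32.02 in control replicate 1 and none below 35 in other samples. miR-451, of red blood cells, had a CT of 32.23 in control replicate 1 and none elsewhere. Together with miR-133a, 4 members were detected in control replicate 1 alone. Over all mouse miRNAs 14 of 517 (2.71%) were detected in that sample alone, and between 3 and 6 in each of the other samples alone.

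miR-223, of neutrophils and monocytes, had a CT of 33.62 and 34.96 in controls, none in depleted replicate 1 and 32.68 in depleted replicate 2. miR-150, of mature lymphocytes, had a CT of 33.96 and 33.90 in controls and 34.86 and 32.96 in depleted BASCs. The depleted samples of miR-150 lay on both sides of the controls, and its log2 change was -0.13 with a standard error of 0.68 (limma, adjusted p = 0.890). Levels of all these blood miRNAs were under 12 copies per cell in each sample. In bulk RNA fewer cells of a type and less RNA per cell cannot be told apart.

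miR-486, which is found in red blood cells and also in muscle, differed from the rest. It gave no CT in either control sample and a CT of 29.02 and 29.15 in depleted replicates 1 and 2, which was 88.0 and 80.7 copies per cell. Among the 224 miRNAs detected in each depleted sample it ranked 82 and 77 by level. The groups did not overlap. Set against a CT of 35 in the controls, the level was at least 54.3-fold higher after depletion with U6 of the same card as reference. Under the other references this bound was 38.3-fold to 44.6-fold, and with a ceiling of 32 it was 6.79-fold. It holds only if the control wells, 1 per sample, worked. Of 92 single-well mouse assays on card A with a CT below 30 in at least 1 sample, 5 gave no CT in another, 2 of them in 1 sample and 3 in 2 samples. miR-486 was the one for which both empty wells fell in the same group. A detection in both samples of the depleted group and in no control was seen for 5 of 517 mouse miRNAs (0.967%), and the CT of the other 4 was between 31.69 and 34.90.

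No test of miR-486 is given, since its control values are the ceiling and have no measured spread. Among members of the same tissues, miR-451, the other red blood cell member, and miR-1, miR-133a, miR-133b, miR-208, miR-208b and miR-499 of muscle were not detected in either depleted sample, while miR-206 of muscle was detected in both, at 33.25 and 30.89.

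**Figure D3:**
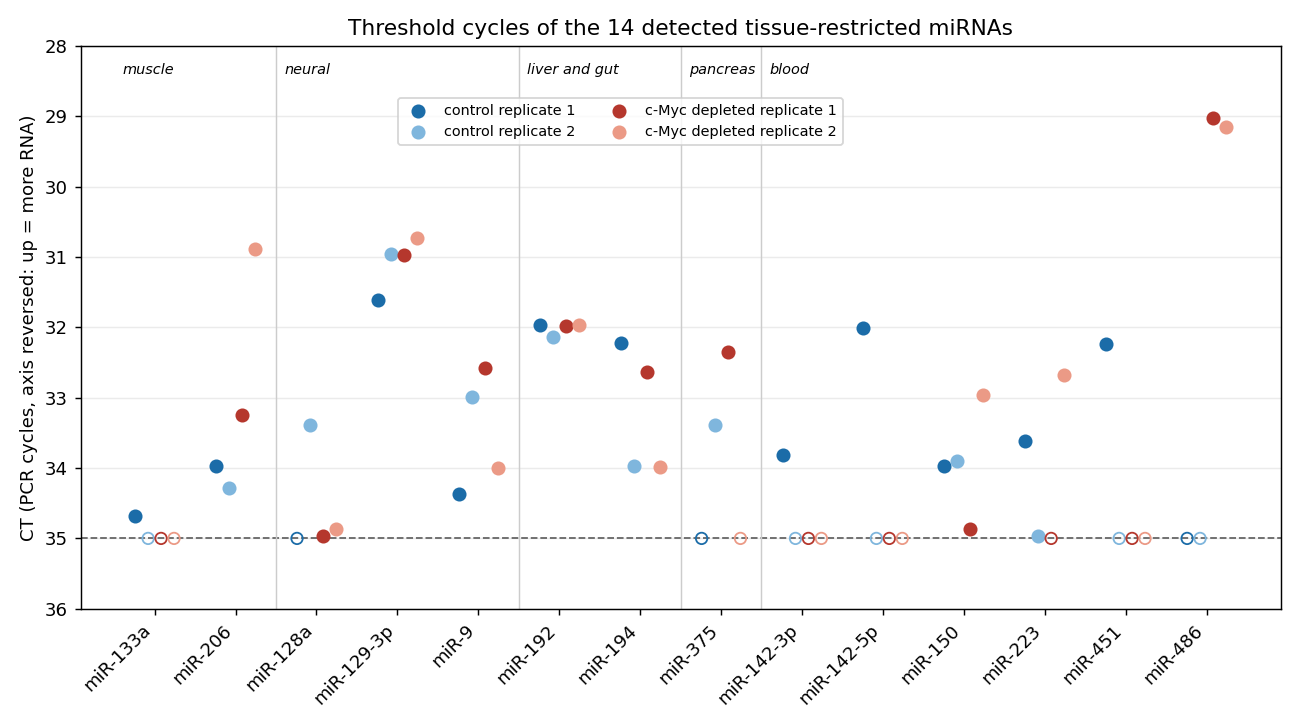
CT of the 14 detected members in the 4 samples, grouped by tissue, with the axis reversed so that more RNA is higher. Open circles on the dashed line at 35 are samples without a CT below 35. miR-486 stands at 29.02 and 29.15 in the depleted samples with both controls at the line, and miR-142-3p, miR-142-5p and miR-451 are above the line in control replicate 1 alone.

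No member reached the expression filter of the study, a ΔCT below 10 in at least 1 sample, which 80 mouse miRNAs passed, and so 0 of 47 met its criteria (that filter, a fold above 2 and a p below 0.05). The lowest ΔCT of a member was 10.16, for miR-486 in depleted replicate 1, followed by 11.83 for miR-206. A second fit therefore took all 189 mouse miRNAs with a mean CT below 35 in every sample. Of these, 12 (6.35%) had an adjusted p below 0.05 in limma. None of the 6 members among them did. An unadjusted p below 0.05 in limma was found for 59 of the 189 miRNAs and for none of the 6 members. A variance test per miRNA without the shared spread of limma, as named in the methods, likewise called 0 of the 6 after adjustment.

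The median log2 change of these 6 members was 0.08, with 3 above and 3 below 0, and that of all 189 was 0.09. On card A the median was -0.07 for 5 members and 0.41 for all 130 miRNAs tested, and on card B miR-206 stood at 1.34 where the median of 59 was -0.43. The CT of U6 was lower in depleted than in control samples by 0.15 cycles on card A and 0.72 cycles on card B. Before U6 was subtracted the log2 change of miR-206 was 2.06. The part of U6 in the difference between the cards was not tested. The standard errors of the members were larger than for most miRNAs, with a median of 0.71 against 0.25 for all 189. Their levels are close to the detection limit: replicates of one group differed by a median of 0.493 cycles for miRNAs with a mean CT between 31 and 35, and by 0.154 cycles for those between 20 and 28.

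**Figure D4:**
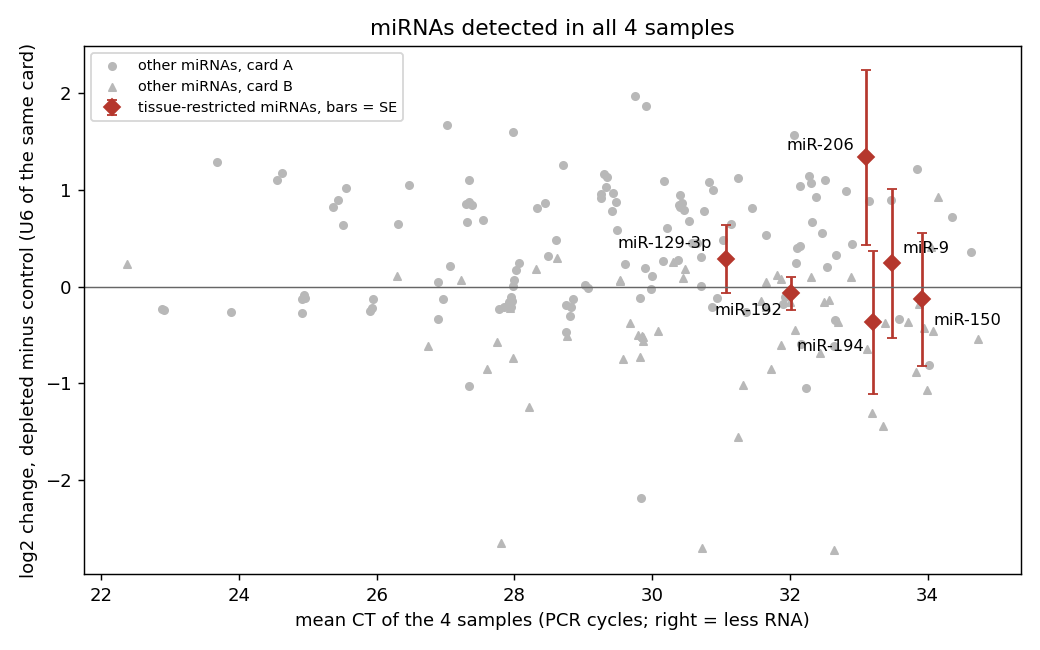
Log2 change after c-Myc depletion against the mean CT of the 4 samples, for the 189 miRNAs detected in all samples. Red diamonds are the 6 members with their standard errors from limma, and grey symbols are other miRNAs on card A (circles) or card B (triangles). Of the members, only miR-206 exceeds 1, with the widest bar, and all lie to the right of a mean CT of 31.

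Markers of other cell types were read beside these values. Of 7 miRNAs typical of epithelium, the tissue to which BASCs belong, 5 were detected in control replicate 1, 2 in control replicate 2 and 1 in each depleted sample. miR-203 and miR-205 were not detected, and miR-200c alone was detected in all samples (CT 32.99 to 33.99). The summed level of the list, as the log2 of the sum of 2 to the power of 40 minus CT, was 9.94 and 7.59 in controls and 6.02 and 6.62 in depleted BASCs. miR-200a had a CT of 31.80 and 33.00 in controls and none below 35 in the depleted samples. miR-200b, miR-141 and miR-429 shared the pattern of miR-142-3p, miR-142-5p and miR-451, with a CT below 35 in control replicate 1 alone. The epithelial marker miRNAs of the labelled cell type were therefore near or below the limit in all 4 samples, at 31.54 to 34.62 where detected in control replicate 1. The study identified its cultured BASCs by protein staining instead. It found SP-C, of alveolar type II cells, together with CCA, of Clara cells, in most colonies after repeated passage. After differentiation it reported cells like Clara and alveolar cells. Such staining is a different measure from the miRNA levels given here.

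Of 5 fibroblast and smooth muscle markers with an assay, 4 were detected in all samples, with CT values from 24.78 for miR-199a-3p to 27.01 for miR-143. The fifth, miR-199a-5p, had a CT of 28.55 in control replicate 1 and 30.04 in depleted replicate 2 and none in the other samples. Their summed level was 16.2 in each control and 16.8 in each depleted sample. Both of the 2 endothelial markers were detected in all samples. miR-126-3p had a CT of 28.81 and 28.83 in controls and 30.73 and 30.97 after depletion. miR-126-5p had a CT of 33.42 and 33.97 in controls and 34.76 and 33.96 after depletion, so that its groups overlapped in CT. The summed level of the 6 blood members was 9.44 and 6.66 in controls and 11.0 and 11.1 in depleted BASCs, where miR-486 made up most of it. Feeder fibroblasts, where present, would be mouse cells that the same assays read. The part of feeder fibroblasts, blood cells or epithelial cells in the levels of the members was not tested.

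**Figure D5:**
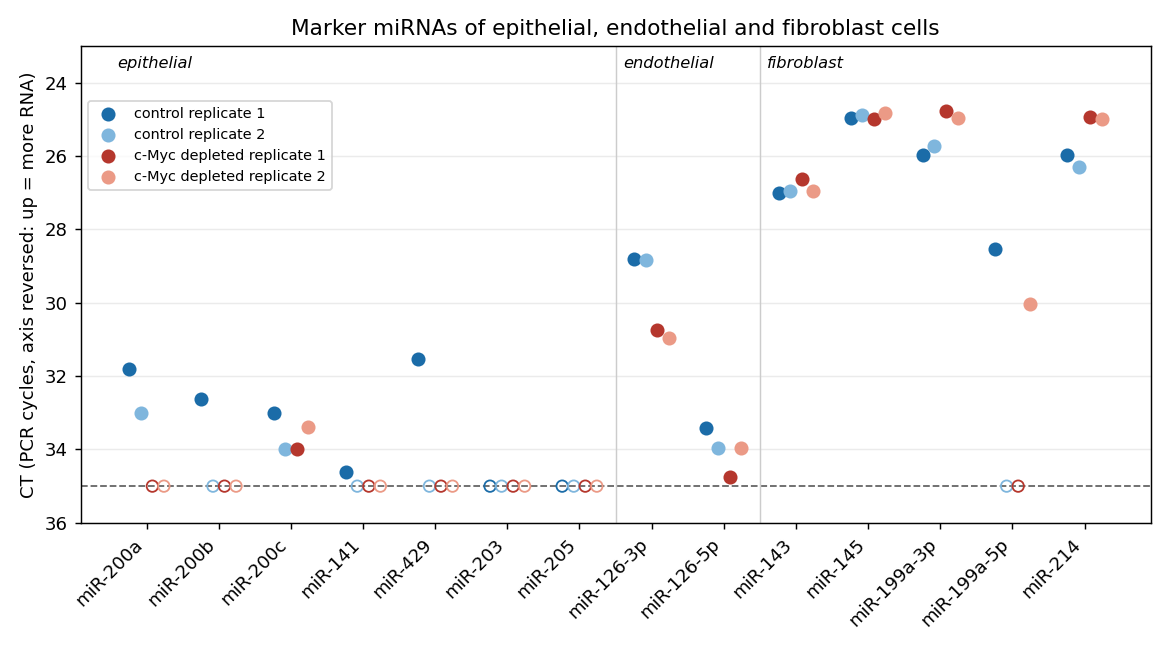
CT of marker miRNAs of epithelial, endothelial and fibroblast cells in the 4 samples, with the axis reversed and open circles for samples without a CT below 35. The epithelial markers lie at 31.54 or above in every sample, with more of them detected in control replicate 1, and miR-143, miR-145, miR-199a-3p and miR-214 lie between 24.78 and 27.01 in every sample.

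Other assays with the numbers of the members were also mostly negative. Of 9 passenger strand assays 8 had no CT in any well, and the 4 rat assays, among them rat miR-1 and both 3p assays of miR-219, had none.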

How the data were processed

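MiRNAs were measured in 4 samples with TaqMan Rodent MicroRNA Array cards A and B (384 wells each). The authors deposited 1 table of CT values per well, in PCR cycles and before any normalization, from RQ manager software. The submitters' processing notes name Partek 6.4. All 4 value columns belong to samples described here.

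As in the methods of the study, 35 was taken as the ceiling for high or missing CT values, U6 of the same card (4 wells) was subtracted, and the copy number formula, with intercept 40, slope 3.34 and divisor 22, was applied to CT. Wells of one assay were averaged after the ceiling, so that miR-206, though detected in all samples, rests in part on wells at the ceiling. Groups came from the sample titles. limma 3.58.1 in R 4.3.3 (lmFit, eBayes, Benjamini-Hochberg over all miRNAs tested) was run on minus ΔCT, over miRNAs with a lowest ΔCT below 10 and over those detected in all 4 samples. The smallest p of an exact two-sided permutation test in this design is 0.333. On simulated data for the second fit, where 40 of 189 miRNAs were given a log2 change of 1.5 in each of 20 runs, 67.9% were recovered and 4.31% of calls were false. The changed miRNAs were drawn at random from all 189, whose median standard error was 0.25, against 0.71 for the 6 members. The share recovered therefore does not hold for the members, and theirs was not simulated. The simulated noise was normal and independent between miRNAs, while the deposited CT values cluster just below whole cycles. The share of false calls therefore describes the simulated data only. Tables used Python 3.11.15 and pandas 2.3.3.

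The members, marker lists and tests were chosen with earlier results of these data known. Every member was named, and those detected in at least 1 sample were given with their values. Older assay names without an arm were matched to the RefSeq entry of the guide strand, and miR-129-3p to mmu-miR-129-2-3p. Alternatives covered the reference, ceiling, empty wells, filter, test, replicate block and single samples. Leaving out wells above 35, U6 pooled over both cards, leaving out miR-206 and 2 further limits for group-wise detection were added after seeing the data.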

Additional observations from a re-analysis of the deposited data

Results flagged for a closer look

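One passenger strand assay outside the members gave a signal. miR-9*, the other strand of the miR-9 hairpins, on card B in 1 well per sample, had a CT of 34.97 in control replicate 1 and 33.89 in depleted replicate 1, and CT values above 35 in the other samples. It stands out because the other 8 passenger strand assays with the members' numbers gave no CT.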

How the results depend on the processing

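Detection depended on the CT limit: with a limit of 32, 4 members were detected in at least 1 sample and 1 in all 4, in place of 14 and 6. Detection in both samples of one group and none of the other held for 1 member at 35, and for 2 with a limit of 32 (miR-486 and miR-206, both in depleted BASCs) and for 2 when any CT was counted (miR-486, and miR-293 in controls). With no filter on ΔCT, 1 member, miR-486, reached the study criteria, in place of 0. The 0 calls among miRNAs detected in all samples became 1 with miRNAs detected in at least 1 sample (miR-486). In both of these the controls of miR-486 are ceiling values without measured spread, and it entered through its depleted samples, so that neither is evidence of a change. The count was 1 with the median CT within each card as reference (miR-206, log2 change 1.78, adjusted p = 0.0236 from limma, which there gave every miRNA the same standard error of 0.52), and 0 to 1 when single samples were left out, the 1 again being miR-206. Over all its alternatives the adjusted p of miR-206 ranged from 0.00986 to 0.923.

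The median log2 change of the members detected in all samples was 0.08. It was -0.30 with the median CT of both cards as reference, -0.42 with the median CT within each card, -0.22 with snoRNA135 and snoRNA202, -0.19 under quantile normalization, -0.20 with U6 of both cards together and 0.28 with a ceiling of 32 (1 member left), and from -0.14 to 0.40 with single samples left out. In the same order of the first 5 references the log2 change of miR-129-3p was -0.10, -0.22, -0.015, -0.075 and -0.00054, and that of miR-9 was -0.15, -0.26, -0.061, -0.049 and -0.046. Leaving out single samples moved miR-129-3p from -0.14 to 0.71, miR-9 from -0.56 to 1.04, miR-150 from -1.07 to 0.81 and miR-194 from -1.14 to 0.40. Among the members tested, leaving out empty wells changed the log2 change of miR-206 only, to 2.21. With wells above 35 left out as well it stayed at 1.34, with a standard error of 0.35 in place of 0.90. The cause of the other shifts was not tested.

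With the replicate number as a block 0 members were called in either fit, and the adjusted p of miR-206 was 0.273. Same-numbered samples did not deviate together (correlation -0.01 over 189 miRNAs), so the numbers were not taken as pairs. miRNAs near CT 35 in single wells are at the limit of these cards.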

Other observations

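CT values of the members lay close below whole cycles more often than an even spread would give. Of 47 member CT values above 30, 21 (44.7%) had a decimal part of at least 0.9, where an even spread gives 10%. The share was 41.4% of 647 values above 30 and 51.9% of 474 below 30 in the other mouse miRNAs, so it is a property of the whole table. CT was thus not read as an evenly spread measure. Its effect on the replicate spreads, the precision of duplicate wells, the standard errors and the tests given here was not tested. miR-192 had 31.97, 32.14, 31.98 and 31.96, and 3 of these 4 values are of that kind. The part of this clustering in the evenness of miR-192 was not tested.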
